A study of Mus musculus with 4 samples.

Results

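Sik1, Cebpb, Igfbp1 and Sds are liver genes of the fasting response, and all 4 were listed lower in fasted liver with both cytochrome b5 genes targeted. They were taken by symbol from the deposited table of targeted against control fasted liver, which holds 722 genes, and they are 4 of the 943 genes in the 2 deposited tables together. That table lists genes past a threshold in the fasted comparison, so the genes were chosen by their lower fasted reads in the targeted library, and those fasted differences are given as a description only. None of the 4 is in the table of the refed comparison.

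The study sequenced RNA from mouse liver in 4 libraries, a single one per genotype and feeding state, and its title concerns sterol C4 demethylation in cholesterol synthesis. The control libraries carry the labels WT and shNC, 1 from a fasted and 1 from a refed state. The targeted libraries carry the label L_Cyb5b_shCyb5a, which the series design writes as Liver-Cyb5b_shCyb5a, again 1 fasted and 1 refed. The labels give no allele, vector, strain, sex, age or pooling of animals, and no length of the fast or of refeeding. With 1 library per group there is no replicate error, no test was possible, and each difference below is between single libraries. Ranges in parentheses are 95% counting intervals (exact Clopper-Pearson on reads) and say nothing of the spread between mice.

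When food is withheld, glucagon raises cyclic AMP in hepatocytes and insulin falls, and the transcription factors CREB and FOXO1 then drive genes for glucose production. Sik1 encodes salt-inducible kinase 1, which cyclic AMP induces and which restrains the CREB coactivator CRTC2. Cebpb encodes the transcription factor C/EBP beta, active in the fasting and the acute phase programmes of the liver. Igfbp1 encodes a secreted binding protein of insulin-like growth factors whose transcription insulin represses. Sds encodes serine dehydratase, which turns serine into pyruvate and ammonia and is induced by glucagon and glucocorticoids in rat liver.

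Of the 4 genes, Cebpb and Igfbp1 have a RefSeq promoter window (GRCm38.p6, 250 bases before to 50 after the gene start, plus strand), and both windows are shown for the response elements tied to these signals. Capitals mark matches, on either strand, to TGACG, the core of the cyclic AMP response element, in Cebpb and to TGTTTTG, a spelling of the insulin response sequence, in Igfbp1. The Cebpb window is chr2:167688665-167688964 and the Igfbp1 window is chr11:7197537-7197836.
Cebpb: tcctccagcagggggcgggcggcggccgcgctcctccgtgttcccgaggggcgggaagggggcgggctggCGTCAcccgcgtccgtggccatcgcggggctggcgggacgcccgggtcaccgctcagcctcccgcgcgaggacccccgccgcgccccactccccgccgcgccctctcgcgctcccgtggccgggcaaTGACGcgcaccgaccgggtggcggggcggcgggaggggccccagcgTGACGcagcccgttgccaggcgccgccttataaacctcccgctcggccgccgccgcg
Igfbp1: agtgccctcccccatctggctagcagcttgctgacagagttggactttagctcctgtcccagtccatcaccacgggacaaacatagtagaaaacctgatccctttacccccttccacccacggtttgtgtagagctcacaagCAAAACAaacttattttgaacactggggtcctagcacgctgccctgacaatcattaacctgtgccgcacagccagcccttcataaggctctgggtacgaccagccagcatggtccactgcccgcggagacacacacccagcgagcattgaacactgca

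The Cebpb window held 3 TGACG matches, beginning 180, 53 and 7 bases before the gene start. At least 1 such match was found in 20.8% of the 32851 RefSeq windows of this length and at least 3 in 1.03%. The window is 80.7% G and C, against a median of 52.7% over all windows. The Igfbp1 window held 1 match to TGTTTTG, read on the opposite strand as CAAAACA and beginning 108 bases before the start, a match found in 6.28% of windows. Neither window held the full element TGACGTCA (1.79% of windows) or TGTTTAC (3.65%), a spelling of the FOXO core. Other spellings of the insulin response sequence and of the FOXO core were not searched. Nor did either window hold the C/EBP motif TTGCNNAA (10.8%), the glucocorticoid receptor motif AGAACA (19.0%) or the E-box CACGTG (7.15%). The marked matches do not overlap, and a match in letters is a description and not evidence of a bound factor. Likewise, a spelling that was not found does not show that a factor cannot bind.

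The libraries were of like depth, with an estimated 13400000 to 13600000 reads each. Cyb5a and Cyb5b had lower transcript levels in the targeted libraries in both feeding states: for Cyb5a these were 207 TPM fasted and 166 refed, against 1686 and 1274 TPM in control liver. TPM scales the transcripts of a library, per length, to a fixed total, and FPKM counts fragments per length and per fixed number of fragments. TPM was 1.504 times FPKM in targeted fasted liver, 1.30 times in control fasted liver, and 1.23 to 1.25 times in both refed libraries. Ratios that involve the targeted fasted library are therefore lower by FPKM than by TPM, and both are given where this matters. None of 9 hepatocyte markers is in either table, so the labelled tissue could not be checked with them.

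Sik1 (gene ID 17691), the kinase, measured 25.8 TPM in control and 12.2 in targeted fasted liver, and 3.42 and 3.31 TPM in control and targeted refed liver. The control fasted library was the highest and the 2 refed libraries lay together at the bottom. The fasted level was 7.53 times the refed level in control (6.47 to 8.81) and 3.67 times in targeted liver (3.10 to 4.36). In the refed state the targeted level was 0.968 times the control (0.786 to 1.19), a difference not detectable with 191 control and an estimated 184 targeted reads.

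Cebpb (gene ID 12608), the transcription factor, measured 119.7 TPM in control and 58.7 in targeted fasted liver. Its refed levels were 24.8 TPM in control and 25.97 in targeted liver. The order was the same as for Sik1 except that the targeted refed library was the higher of the refed pair, at 1.049 times the control, an interval that holds 1 (0.913 to 1.21). Fasted over refed, Cebpb was 4.84-fold in control (4.34 to 5.403) and 2.26-fold in targeted liver (2.01 to 2.55), the smallest ratios of the 4 genes in each genotype. By FPKM the ratio in targeted liver was 1.88 (1.67 to 2.12), under 2-fold.

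Igfbp1 (gene ID 16006), the insulin-repressed secreted protein, was the most abundant of the 4 per length in every library. It measured 1559 TPM in control and 821 in targeted fasted liver, the 9th and 10th highest values of the 722 genes in those libraries. The refed levels were 173.1 TPM in control and 173.8 in targeted liver, a ratio of 1.004 (0.953 to 1.06). Igfbp1 also had the widest fasted over refed ratio of the 4, at 9.002 in control (8.66 to 9.37) and 4.72 in targeted liver (4.53 to 4.92).

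Sds (gene ID 231691), the serine-degrading enzyme, measured 383 TPM in control and 221 in targeted fasted liver. Its refed levels were 66.6 TPM in control and 78.2 in targeted liver. Unlike the other 3 genes, its refed ratio of targeted over control, 1.17, had a counting interval above 1 (1.07 to 1.29), and by FPKM it was 1.15 (1.046 to 1.27). Whether mice differ by this much was not tested. Fasted over refed, Sds was 5.76-fold in control (5.33 to 6.23) and 2.82-fold in targeted liver (2.61 to 3.06).

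**Figure D1:**
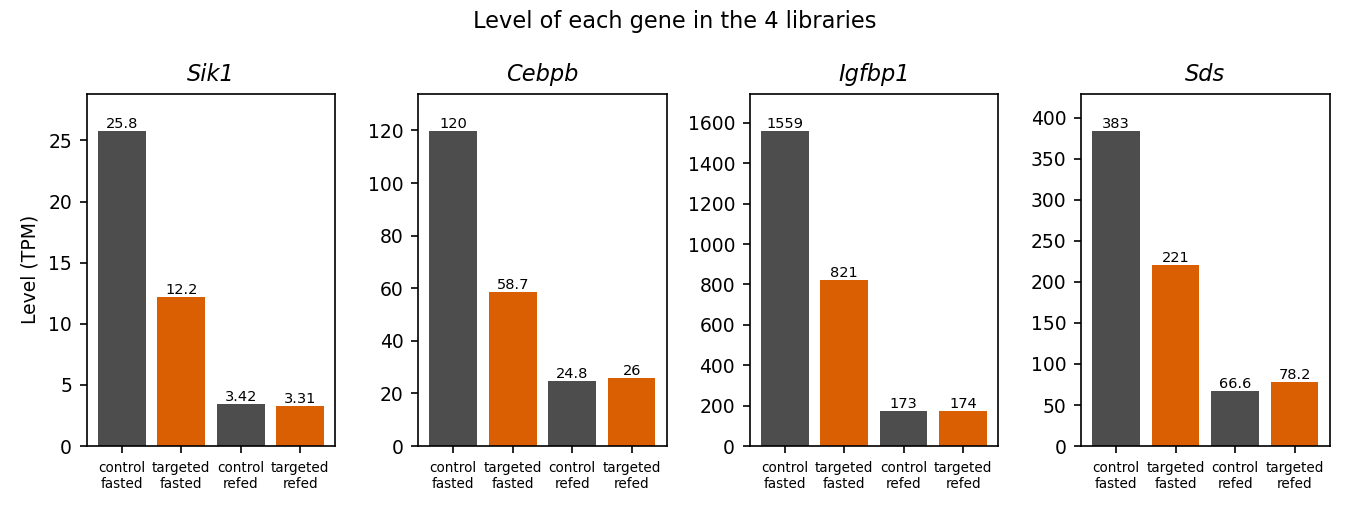
Level in TPM of each gene in each of the 4 libraries, 1 bar per library and 1 axis per gene, all starting at 0. For each gene the control fasted bar is the highest, the targeted fasted bar is lower and the refed bars are lowest, for example 1559, 821, 173.1 and 173.8 TPM for Igfbp1.

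In the fasted contrast that chose the genes, the targeted level was 0.472 times the control for Sik1, 0.491 for Cebpb, 0.527 for Igfbp1 and 0.576 for Sds by TPM. The same ratios by FPKM were 0.409, 0.425, 0.457 and 0.499. In the authors' deposited table, 503 of the 722 genes are lower (69.7%), and nothing is read from the 4 of 4 here, since being lower chose them. Sds lies just inside the table's threshold, at a log2 ratio of -1.01, and 10 of the 503 lower genes have a smaller difference. The smallest differences listed are those of C5ar2, Trpm2 and Vamp5, each at a log2 ratio of -1.0. Among genes of the refed table alone, at 1 FPKM or more in control fasted liver, the lowest log2 ratios of FPKM were -1.51 for Xlr4a, -0.98 for Ldb2 and -0.97 for Maf.

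The feeding ratio was then set side by side in the 2 genotypes. All 4 genes were at least 2-fold higher in fasted than in refed control liver, where 46.7% of 651 genes of the fasted table, and 59.8% of its 470 lower genes, were too (53.4% of 451 by FPKM). All 4 were also at least 2-fold higher in fasted than in refed targeted liver by TPM, against 18.4% of 618 genes of the table and 9.18% of its 414 lower genes. By FPKM 3 of the 4 were, Cebpb being the exception, against 7.12% of 393. These shares cover genes reaching 1 TPM (or 1 FPKM) in at least 1 of the 2 libraries compared, a filter that the 4 genes pass in every library. Over the lower genes the median fasted over refed ratio was 2.23 in control and 0.733 in targeted liver. The genotypes share no library here, but each ratio holds 1 library of the contrast that chose the genes, which favours high values in control and low ones in targeted liver. The 4 were also grouped as genes of the fasting response with earlier results of these data known. Their counts beside these shares are therefore a description only.

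The difference in level between refed and fasted liver gives the same comparison in absolute terms. Sik1 was 22.3 TPM higher in fasted than in refed control liver and 8.85 TPM higher in targeted liver, 39.6% as much. For Cebpb the differences were 94.95 and 32.8 TPM, 34.5% as much. The share was 46.7% for Igfbp1 and 44.99% for Sds. By FPKM the shares were 32.0% for Sik1, 25.5% for Cebpb, 38.6% for Igfbp1 and 35.1% for Sds, so Cebpb had the smallest share on both scales. The targeted ratio divided by the control ratio was 0.488 for Sik1, 0.468 for Cebpb, 0.524 for Igfbp1 and 0.490 for Sds by TPM. This quotient equals the fasted ratio of targeted over control, which chose the genes, divided by the refed one. It and the shares hold both libraries of the contrast that chose the genes. Low values were thus favoured by that choice and are a description only.

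**Figure D2:**
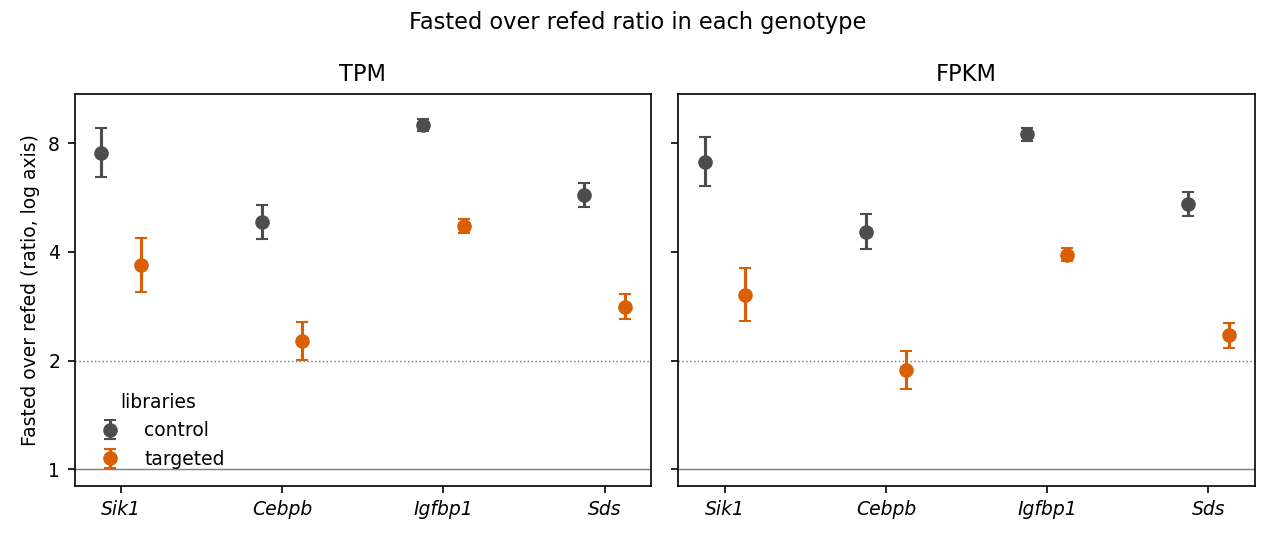
Fasted over refed ratio of each gene in control and targeted liver, by TPM (left) and FPKM (right), on a log axis. Bars are 95% counting intervals, the solid line marks 1 and the dotted line 2. Each targeted point lies below its control point, which the choice of genes favours. Cebpb in targeted liver falls under 2 by FPKM, at 1.88.

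In the refed contrast, which uses no library of the fasted contrast, none of the 4 genes differed between genotypes by 2-fold, and their ratios ran from 0.968 to 1.17. Of 588 genes of the fasted table, 13.6% differed by at least 2-fold in either direction there, as did 13.3% of 406 lower genes, and the median ratio over the lower genes was 1.36. Most genes of the table thus did not differ by 2-fold either, and nothing is read from the 4, whose refed ratios lay below that median.

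Genes of other cell types were also lower in the targeted fasted library. Of 52 listed markers of endothelium, macrophages and Kupffer cells, lymphocytes, neutrophils, stellate cells and matrix, blood and bile duct, 20 are in the fasted table, each of them lower, by a median of 2.28-fold, where 69.7% of that table is lower. Their summed level was 543.6 TPM in control fasted, 257.9 in targeted fasted, 245.9 in control refed and 350.7 in targeted refed liver, and none is at 0 in any library. Most of each sum, 311.7, 160.8, 158.3 and 217.4 TPM in the same order, came from the 3 haemoglobin genes of the blood list. None of the bile duct markers is in either table. In targeted liver the fasted over refed ratio of these 20 markers ran from 0.242 to 1.07, with a median of 0.695. That is below the 2.26 to 4.72 of the 4 genes, a gap that both choices favour and that is a description only. The markers were listed as lower in the targeted fasted library, and the 4 were grouped as genes of the fasting response. Of the markers in the refed table alone, the macrophage gene Cd163 was at 2.93 in targeted liver, within the range of the 4 genes, and at 9.29 in control, and the endothelial gene Lyve1 was at 1.38 and 5.89. In refed liver all 20 markers of the fasted table were higher in the targeted library, by 1.053 to 3.25-fold with a median of 1.49, where the median over the lower genes was 1.36 and the 4 genes lay at 0.968 to 1.17. Fewer cells of a type and less RNA per cell cannot be told apart in whole liver, and the part of cell composition in the fasted ratios of the 4 genes was not tested.

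**Figure D3:**
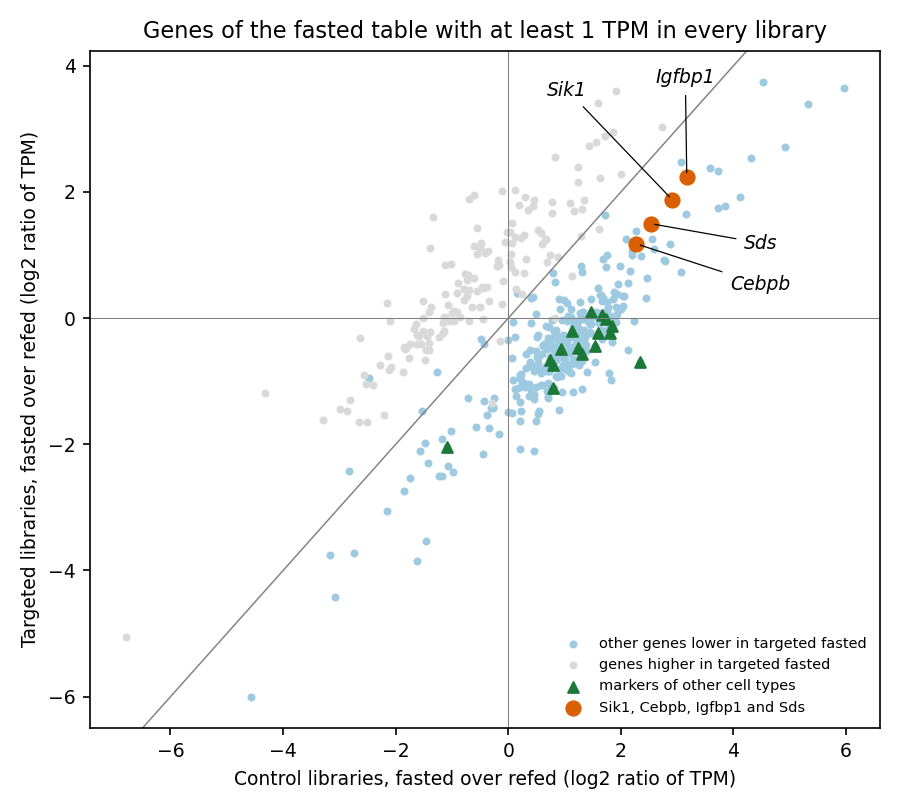
Log2 ratio of TPM, fasted over refed, in control (x) and targeted liver (y) for the 480 genes of the fasted table with at least 1 TPM in every library, 16 of them markers of other cell types (triangles); the diagonal marks equal ratios. The 4 genes (large circles) lie below the diagonal, which their choice favours. They lie above 0 on both axes, which their grouping as genes of the fasting response favours. The markers plotted lie near or below 0 on the y axis, which their listing as lower in targeted fasted liver favours.

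Other genes of the same pathways were counted from fixed lists. The fasted table holds only genes past its threshold, with a smallest absolute log2 ratio of 1.0. The size of the fasted differences of listed genes, here and below, is thus favoured by that threshold and is a description only. Of 25 genes of the cyclic AMP and immediate early list, 5 are in the fasted table, each of them lower, with a median log2 ratio of -1.80, where 69.7% of the table is lower. Besides Sik1 they are Dusp1, a phosphatase of MAP kinases, Btg2, an antiproliferative regulator, and the transcription factors Fos and Nr4a2. Dusp1 stood at 48.4 TPM in control fasted and 13.3 in targeted fasted liver, 3.65-fold lower (3.16 to 4.22), and at 24.1 and 16.9 TPM in control and targeted refed liver. Its refed ratio of targeted over control was 0.699, against 0.968 for Sik1. Btg2 was 1.84-fold lower (1.63 to 2.09) and Fos 3.06-fold lower (1.76 to 5.59) in the fasted state, and both were higher in refed targeted than refed control liver, by 1.33 and 2.09-fold. Fos measured 2.66 TPM in control and 0.87 in targeted fasted liver, and 0.96 and 2.01 TPM in control and targeted refed liver. Nr4a2 was at 0.75 TPM or less in every library and rested on 27 control and 6 targeted fasted reads. In targeted liver the fasted over refed ratio of these 4 genes lay between 0.433 and 0.821, against 3.67 for Sik1. The list's Ppargc1a, Crem, Per1, Nr4a1, Sik2 and Sik3 are in neither table and were not analysed here.

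Cebpb is the single gene of 6 on the C/EBP list in either table. On the list of FOXO targets and insulin-repressed genes, 2 of 12 are in the fasted table, and they went opposite ways. Igfbp1 was lower, and Sesn3, a sestrin that FOXO factors induce, stood at 0.96 TPM in control fasted and 3.93 in targeted fasted liver, 4.09-fold higher (2.53 to 6.90) on 22 and 79 reads. Of the 12 genes of the insulin-like growth factor list, 4, all of them binding proteins, are in the fasted table and lower, where 69.7% of the table is. Igfbp3 was 1.81-fold lower (1.54 to 2.12), Igfbp5 2.76-fold (1.84 to 4.25) and Igfbp7 1.80-fold (1.62 to 2.003). Igfbp7 stood at 103.8, 57.7, 79.4 and 93.2 TPM in control fasted, targeted fasted, control refed and targeted refed liver. Its targeted level was thus lower fasted than refed (ratio 0.619), whereas that of Igfbp1 was higher fasted.

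Genes of serine and amino acid catabolism were split. Of the 25 on the list, 4 are in the fasted table, with Sds and Sdsl lower and Gldc and Amt higher in the targeted library. Sdsl encodes a serine dehydratase-like protein related to Sds and stood at 21.1 TPM in control fasted, 11.9 in targeted fasted, 6.34 in control refed and 6.79 in targeted refed liver. It had the same order of libraries as Sds, at a lower level, and was 1.78-fold lower (1.44 to 2.20) in the fasted pair. Gldc and Amt encode the glycine decarboxylase and the aminomethyltransferase of the glycine cleavage system, which takes glycine, formed from serine, apart. Gldc stood at 33.5 TPM in control fasted and 78.1 in targeted fasted liver, 2.33-fold higher (2.19 to 2.49), and at 55.4 and 61.4 TPM in refed control and targeted liver. Amt stood at 13.7 and 30.8 TPM in the fasted pair, 2.24-fold higher (1.94 to 2.61), and at 36.4 and 43.6 TPM in the refed pair. Both were lower in fasted than in refed control liver, the opposite of Sds and Sdsl.

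Of 8 genes of serine synthesis and uptake, the transporter gene Slc1a5 alone is in a table, 1.94-fold lower (1.39 to 2.73) in the fasted pair on 115 control reads. None of the 9 gluconeogenesis genes and none of the 8 glucocorticoid targets is in either table. Of 10 insulin-induced genes, 7 are in the refed table, all lower in the targeted library, where 21.8% of the 284 genes of that table are, and Elovl6 is also lower in the fasted table.

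**Figure D4:**
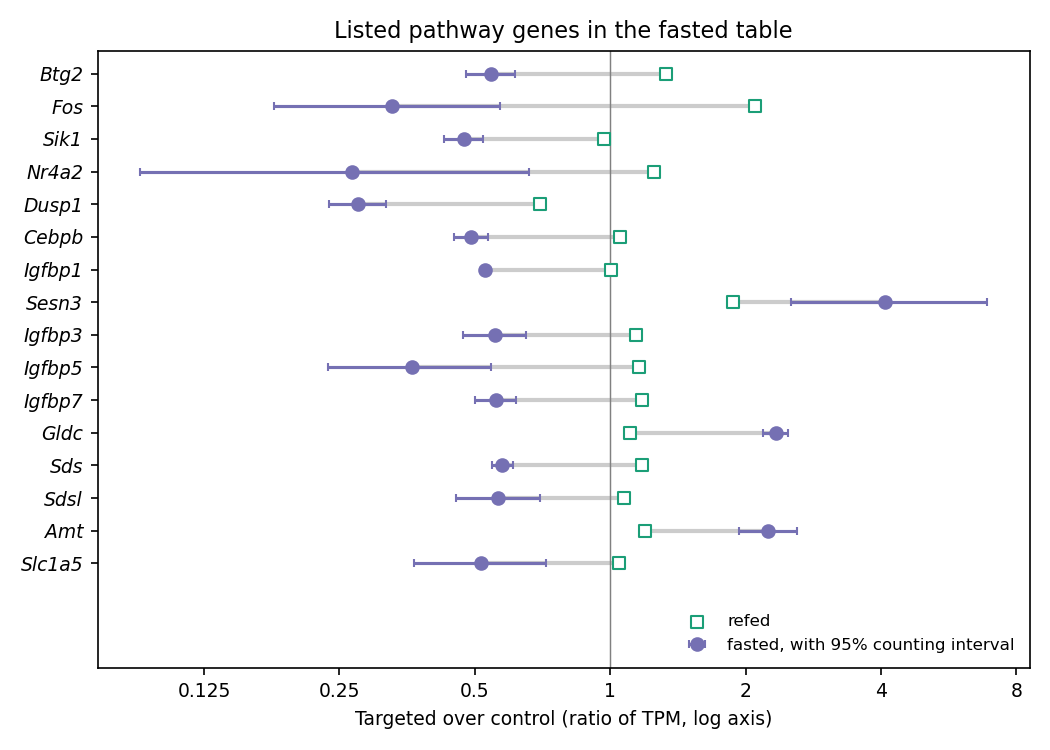
Targeted over control ratio of TPM, on a log axis, for the 16 genes in the fasted table from the pathway lists other than the insulin-induced list; filled circles are the fasted pair with 95% counting intervals and open squares the refed pair. Gldc, Amt and Sesn3 lie above 1 in the fasted pair and the other 13 plotted below it, while the refed squares of Sik1, Cebpb and Igfbp1 lie at 0.968, 1.049 and 1.004.

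The genes with the most similar profile to each of the 4 were taken from 480 genes, by the root mean square distance between log2(TPM + 1) profiles centred on their mean over the 4 libraries. The nearest to Sik1 was Sds, at 0.13, and the nearest to Sds was Sik1. Ccn2, a matrix-associated growth regulator, and the predicted gene Gm43305 followed for Sik1, at 0.14 and 0.16, and Gm43305 and Zfp36l2, an RNA-binding protein gene, for Sds, both at 0.16. Cebpb lay nearest to Gm43305 and Rasgef1b, each at 0.08, and to the phosphatase gene Ptp4a1, at 0.09. Ptp4a1 stood at 270.7, 133.2, 63.6 and 55.7 TPM in control fasted, targeted fasted, control refed and targeted refed liver. Igfbp1 lay nearest to the kinase gene Pim3, at 0.12, to Nnmt, which methylates nicotinamide, at 0.15, and to Ccn2, at 0.23. Nnmt stood at 724 TPM in control fasted and 364 in targeted fasted liver, with refed levels of 86.7 and 65.2 TPM. Among the 4 genes themselves the widest distance was that of Cebpb and Igfbp1, at 0.51. With FPKM in place of TPM, all 3 neighbours were shared for Cebpb and 2 of 3 for each of the others. Ccn2, at 1.22 TPM in control and 1.19 in targeted refed liver, was the neighbour not shared for Sik1 and for Igfbp1.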

How the data were processed

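RNA from 4 mouse liver libraries, 1 per group, was analysed from 2 deposited gene tables. TPM and FPKM per library, the log2 ratio and its p-value were computed by the authors, per the file headers. Not given in the sources used here are the aligner, annotation, build, library preparation and strandedness. Genes, lists and rules were chosen with earlier results of these data known. The 4 genes are reported in full, with listed genes found in either table and, for each of the 4, the 3 nearest profiles.

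The deposited p-values compare single libraries and were not used as tests. They and the deposited log2 ratios were solved for whole reads: the doubled Audic-Claverie tail gave the same library read ratio in 99 of 100, 88 of 88 and 38 of 38 genes. Reads of Sik1 and Cebpb, and the fasted reads of Sds, were solved in this way (relative tolerance 0.0005 on the p-value). Where the p-value is listed as 0, whole numbers that give the log2 ratios within 1e-12 were used: for Igfbp1 the smallest such numbers, 23424 control fasted, 10863 targeted fasted and 2803 control refed reads, and for Sds its 774 control refed reads. Targeted refed reads were estimated from FPKM. The solving step was tested on simulated reads. Intervals are for read ratios moved to the TPM or FPKM scale and cover counting error only, because reads lacking molecular identifiers need not be independent molecules. Depth was estimated with GENCODE M21 transcript lengths. Alternatives were FPKM, a pseudocount of 1 TPM, no filter, 1.5-fold and the deposited log2 ratio. Python 3.11.15, scipy 1.17.1 and pandas 2.3.3 were used. The second sheets of both workbooks were not used.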

Additional observations from a re-analysis of the deposited data

Results flagged for a closer look

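By TPM, Cebpb, Igfbp1 and Sds had a targeted level below the control in the fasted pair and at or above it in the refed pair. The lower fasted level is what chose the genes. The refed ratios of targeted over control were 1.049 for Cebpb, 1.004 for Igfbp1 and 1.17 for Sds by TPM, and 0.986 for Igfbp1 by FPKM. With 1 library per group the difference between feeding states was not tested, and the counting intervals of Cebpb and Igfbp1 in the refed pair hold 1. So does that of Sik1, whose refed ratio by TPM was 0.968 (0.786 to 1.19).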

How the results depend on the processing

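The ratios of the 4 genes kept their side of 1 in every setting tried, except that of Igfbp1 in the refed pair, 1.004 by TPM and 0.986 by FPKM. FPKM in place of TPM took the fasted over refed ratio in targeted liver to 3.05 for Sik1, 1.88 for Cebpb, 3.92 for Igfbp1 and 2.35 for Sds, and that of Igfbp1 in control to 8.47. FPKM took the fasted ratio of targeted over control to 0.409 for Sik1, 0.425 for Cebpb, 0.457 for Igfbp1 and 0.499 for Sds. The authors' deposited log2 ratio, which follows reads, gave 0.415, 0.432, 0.464 and 0.498, and 8.36 for Igfbp1 fasted over refed in control. Adding 1 TPM took the Sik1 ratio to 6.05 in control and 3.05 in targeted liver. Adding 1 TPM also took the genes of the fasted table at least 2-fold higher fasted than refed in control from 304 to 182 (lower genes alone, from 281 to 164, an alternative chosen after seeing the data), those lower in targeted liver from 113 to 75, and those higher in the refed targeted library from 67 to 24. At 1.5-fold these last 2 counts were 210 and 190, and the genes lower in the refed targeted library went from 13 to 32, or to 21 with no filter. By TPM ratio 329 genes, and with 1 TPM added 128, were at least 2-fold lower in the targeted fasted library, against 503 in the deposited table. No paired analysis was possible because each group has 1 library, and for the same reason no replicate could be left out. Depth limits genes such as Nr4a2, Fos and Sesn3, each on under 100 reads in both fasted libraries.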

Other observations

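By TPM, a few other genes had the pattern of the 4. They were listed as lower in the targeted fasted library and at least 2-fold higher fasted than refed in both genotypes. They were also within 1.2-fold between genotypes when refed. These limits were chosen after the values were seen. Of 467 genes listed as lower, above 0 in every library and at 1 TPM or more in a control library, 15 met them, the 4 included. By FPKM Cebpb itself did not, at 1.88-fold fasted over refed in targeted liver. G0s2, an inhibitor of the lipase that starts triglyceride breakdown, stood at 469.6 TPM in control fasted, 248.1 in targeted fasted, 20.4 in control refed and 18.4 in targeted refed liver. Plk3, a stress-responsive kinase, stood at 113.7, 37.1, 12.8 and 11.8 TPM in the same order. Hip1r, Thbd and Rasd1 are also among the 15, Rasd1 at a highest level of 1.92 TPM.

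By the KEGG annotation in the deposited table, also examined after the values were seen, Cebpb stands in 4 pathways. It shares TNF signaling with Fos, Il1b, Ccl5 and Vcam1, all lower in the targeted fasted library, where 69.7% of the table is lower. Fos and Il1b rested on 17 and 10 targeted fasted reads. IL-17 signaling and Tuberculosis, also among the 4, hold 4 and 19 genes of the table, Cebpb included, each of them lower. Transcriptional misregulation in cancer, another of the 4, holds 10 genes of the table, among them Elk4, which was 3.36-fold higher. In refed liver Ccl5, a chemokine, stood at 5.09 TPM in control and 12.5 in targeted liver, and Vcam1, an adhesion molecule, at 5.44 and 10.2 TPM, while Cebpb stood at 24.8 and 25.97 TPM. In the pathway of glycine, serine and threonine metabolism, Sds shares the fasted table with Sdsl, Gatm, Gldc, Amt and Bhmt. Bhmt, which methylates homocysteine, stood at 837 TPM in control fasted and 2481 in targeted fasted liver, but at 2201 and 1151 TPM in control and targeted refed liver, so its genotype ratio turned between feeding states.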
